A study of Homo sapiens with 36 samples.

Results

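ZIC1, ZIC2, ZIC4 and ZIC5 are 4 of the 34687 genes in the deposited expression table, and they were chosen by symbol. Each was measured by 1 array probe, whose specificity among the related ZIC transcripts could not be checked because its sequence was not at hand, and all 4 passed the detection filter, among 22843 genes tested. The study followed the human embryonic stem cell line WA09 on Illumina bead arrays over 11 days of differentiation, with 36 arrays in 12 groups of 3. Before differentiation the cells, at passages 32 to 50, were kept on mouse feeder cells with 6 ng/ml FGF2, and they were then plated on matrigel. All differentiating cultures received 100 nM LDN-193189, an inhibitor of BMP receptors, and 10 µM SB431542, an inhibitor of activin, nodal and TGF-β receptors. The DSi condition, sampled on days 3, 6, 8 and 11, had these 2 inhibitors alone. The NC condition, sampled on the same days, had 3 µM CHIR 99021 in addition, which inhibits the kinase GSK3 and so turns on WNT signalling. The BE condition, sampled on days 8 and 11, had all 3 compounds with 25 ng/ml BMP4 and 100 nM EDN3 (endothelin 3). The series' design text relates DSi to inhibition of both SMAD branches, NC to neural crest and BE to melanocytes. The labels of day 0 and day 1 name the 2 inhibitors without a dose or a condition. One cell line was used, and nothing in the labels says whether the replicates came from separate cultures, so p-values measure the spread between these samples.

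ZIC proteins are transcription factors with tandem zinc fingers of the C2H2 type that are closely related to those of the GLI and GLIS proteins, the transcriptional effectors of hedgehog signalling and their relatives. In vertebrate embryos, ZIC genes are transcribed in the neural plate and its border, and later in the dorsal neural tube and the cerebellum. ZIC1 is known as a neural plate border factor that acts with PAX3 upstream of neural crest genes in frog embryos. ZIC2 is transcribed already in pluripotent cells and is a human holoprosencephaly gene. ZIC1 and ZIC4 are neighbours whose joint heterozygous loss has been linked to Dandy-Walker malformation, and ZIC5 lies beside ZIC2 and has roles in neural crest in frog and mouse embryos.

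The genes form 2 divergent pairs, and the sequences upstream of their starts are shown because the members of a pair share a genomic neighbourhood. In RefSeq's annotation of GRCh38.p14, ZIC1 lies at chr3:147409365-147416719 on the plus strand and ZIC4 at chr3:147386046-147406543 on the minus strand, and their outermost starts are 2822 bases apart. ZIC2 lies at chr13:99981784-99986765 on the plus strand and ZIC5 at chr13:99962964-99971909 on the minus strand, with outermost starts 9875 bases apart. Below are the 250 bases before the outermost start of each gene, from RefSeq's table of promoters, 5′ to 3′ on the gene's own strand. Capitals mark exact matches, on either strand, to CCAAT, the core of the CCAAT box, and to CTTTG, the core that TCF and LEF factors bind, which reads CAAAG on the opposite strand.
ZIC1: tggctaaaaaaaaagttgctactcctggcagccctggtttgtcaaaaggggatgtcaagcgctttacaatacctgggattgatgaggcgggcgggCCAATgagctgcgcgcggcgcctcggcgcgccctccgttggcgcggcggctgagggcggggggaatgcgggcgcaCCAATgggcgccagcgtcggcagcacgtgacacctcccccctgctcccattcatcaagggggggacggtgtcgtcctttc
ZIC4: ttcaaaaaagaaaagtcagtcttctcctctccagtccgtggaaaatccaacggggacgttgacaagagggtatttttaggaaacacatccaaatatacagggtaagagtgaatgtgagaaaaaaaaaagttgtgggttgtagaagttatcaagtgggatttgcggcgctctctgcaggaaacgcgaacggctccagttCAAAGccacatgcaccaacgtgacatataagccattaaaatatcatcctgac
ZIC2: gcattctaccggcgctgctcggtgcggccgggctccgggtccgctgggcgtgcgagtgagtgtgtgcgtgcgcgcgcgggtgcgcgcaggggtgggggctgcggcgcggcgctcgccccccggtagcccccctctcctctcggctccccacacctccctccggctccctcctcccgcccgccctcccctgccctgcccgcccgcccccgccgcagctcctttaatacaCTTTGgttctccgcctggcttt
ZIC5: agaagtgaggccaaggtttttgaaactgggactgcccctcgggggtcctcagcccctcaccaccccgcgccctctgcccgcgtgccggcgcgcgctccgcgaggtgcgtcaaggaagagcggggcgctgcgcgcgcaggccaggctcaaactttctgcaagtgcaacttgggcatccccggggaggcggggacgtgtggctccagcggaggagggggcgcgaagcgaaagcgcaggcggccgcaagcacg
These windows lie at chr3:147409115-147409364 for ZIC1, chr3:147406544-147406793 for ZIC4, chr13:99981534-99981783 for ZIC2 and chr13:99971910-99972159 for ZIC5. The members of the chromosome 3 pair differ in composition. The ZIC1 window has a GC content of 64.4% and 23 CpG dinucleotides, and the ZIC4 window 42.8% and 9. On chromosome 13 both windows are rich in GC, with 75.6% and 31 CpG for ZIC2 and 70.4% and 28 CpG for ZIC5, whereas the median over 35093 windows of this length was 58.0% and 11. CCAAT occurs 2 times in the ZIC1 window, starting 155 and 80 bases before the start of transcription, and in none of the other 3. CTTTG occurs 1 time in the ZIC2 window, from 22 bases before the start, and 1 time on the opposite strand of the ZIC4 window, from 52 bases before it. Of all windows, 32.0% hold CCAAT and 42.1% hold CTTTG on either strand, so such matches are common, and these are matches of letters only. The table lists 4 starts for ZIC4 and 3 for ZIC5, and which of them these cells use was not measured.

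The arrays differed in mean raw signal, which was 214.7 to 462.5. Between 16055 and 19724 of 47323 probes were above background (detection p under 0.05), and correlations between arrays of a group were 0.970 to 0.986. As a check of the labels, 6 of 11 tested genes of the anterior neural list were called higher in DSi day 3 than in day 1, 6 of 7 tested neural crest genes higher in NC than in DSi on day 8, and 7 of 9 melanocyte genes higher in BE than in NC on day 11. NANOG, a pluripotency factor, was at least 3.62-fold lower in DSi day 3 than in day 1. Replicate 1 of DSi day 3 has a title without the suffix found in all other DSi titles, and its values are singled out below where they decide a result. Signals are given on the log2 scale after background correction and quantile normalization, as mean ± SD of 3 arrays. A difference was called where limma's adjusted p was under 0.05, with Benjamini-Hochberg adjustment over 22843 genes. Probes differ in brightness, so levels are compared between groups and not between genes.

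ZIC2 was above background on all 36 arrays and had the widest span of group means of the 4 genes, 3.23 on the log2 scale. It rose in the first 3 days and was highest on day 3 in both conditions, then was lower at each later sampling. In day 0 the 3 arrays read 9.90, 9.85 and 10.77, and in day 1 they read 11.08, 10.85 and 11.74. In DSi day 3 they read 13.03, 12.80 and 13.09, a mean of 12.97 ± 0.15 (SD, n = 3). All 3 exceeded every array of the other groups, though those of NC day 3, at 12.71, 12.70 and 12.79, came within 0.24 of them on the mean. That difference was not called by limma (adjusted p = 0.955), and ranges were apart for 9.09% of all genes between these 2 groups. NC day 3 in turn averaged 12.73 ± 0.04 and stood above all remaining groups. DSi day 6 read 12.34, 12.51 and 12.21, and NC day 6 read 12.00, 12.03 and 12.66, so that these groups overlapped. DSi day 8 read 11.75, 12.09 and 11.84, and NC day 8 read 11.67, 11.74 and 11.81, which overlapped too. The conditions parted on day 11. DSi day 11 still read 11.12, 11.46 and 11.56 (mean 11.38 ± 0.23), whereas NC day 11 read 9.99, 10.13 and 10.38 (mean 10.17 ± 0.19). BE day 8 read 11.21, 10.92 and 11.54, and BE day 11 read 9.89, 9.57 and 9.78 (mean 9.74 ± 0.16), the lowest mean of the 12 groups. In the order of the 12 means, from DSi day 3 down to BE day 11, neighbours were separated by more than their ranges after DSi day 3, NC day 3, NC day 8, BE day 8 and NC day 11. The other neighbours, such as DSi day 11 (11.38), day 1 (11.22 ± 0.46) and BE day 8 (11.22 ± 0.31), overlapped.

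ZIC5, the divergent partner of ZIC2, was close to background on most arrays and was above it on 14 of 36. It was above background on all 3 arrays of DSi day 3 and NC day 3, the groups in which ZIC2 also had its highest means. DSi day 3 read 5.39, 6.12 and 5.63 (mean 5.71 ± 0.37, n = 3), and NC day 3 read 5.62, 5.94 and 5.47 (mean 5.67 ± 0.24). NC day 6 was split, with 5.49, 4.64 and 6.06, the middle value not above background. Elsewhere 0 or 1 array of a group was above background, and group means lay between 4.77 and 5.11. One array of BE day 11 read 5.91 where the other two read 4.63 and 4.64. The span of the group means was 0.95, the smallest of the 4 genes.

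ZIC1 and ZIC4, the pair on chromosome 3, were highest in NC on day 11. ZIC4 was above background on 6 of 36 arrays, which were the 3 of NC day 8 and the 3 of NC day 11. NC day 8 read 5.41, 5.56 and 6.11 (mean 5.69 ± 0.37, n = 3), and NC day 11 read 6.49, 6.96 and 7.52 (mean 6.99 ± 0.51). Every array of NC day 11 exceeded every array of NC day 8, and both groups exceeded all others. Between NC days 8 and 11, ranges were apart for 23.2% of all genes. The other 10 groups had means between 4.40 and 4.93, not well above background, with the highest single reading of 5.13 in BE day 8. In BE day 8 the arrays read 4.84, 4.83 and 5.13, and in BE day 11 they read 4.73, 4.71 and 4.82.

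ZIC1 was above background on 10 of 36 arrays: the 6 of NC days 8 and 11, 2 of DSi day 3 and 2 of BE day 11. NC day 11 read 6.14, 5.66 and 6.53 (mean 6.11 ± 0.43, n = 3), above all other groups. Its range was apart from that of NC day 8, as for 23.2% of all genes. NC day 8 read 5.24, 5.20 and 5.65 (mean 5.36 ± 0.25). DSi day 3 read 4.65, 5.60 and 5.40 (mean 5.22 ± 0.50), a range that covers most of that of NC day 8. Its low array is replicate 1, the one with the differing title. BE day 11 read 5.17, 5.42 and 4.96 (mean 5.18 ± 0.23). No array of the remaining 8 groups was above background, and their means lay between 4.69 and 4.85.

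**Figure D1:**
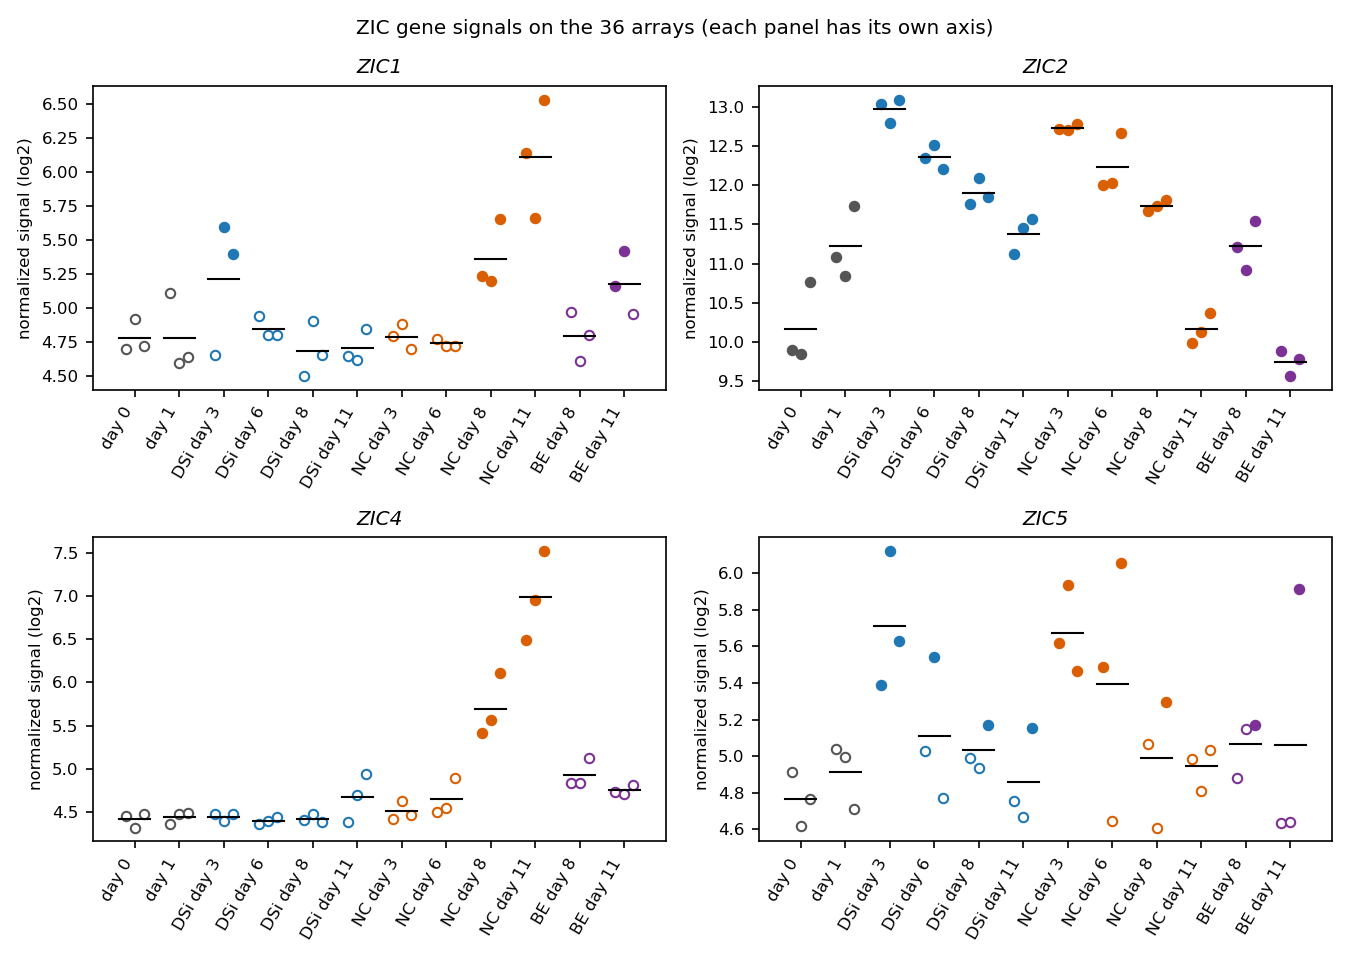
Normalized log2 signal of ZIC1, ZIC2, ZIC4 and ZIC5 (vertical axes, one scale per panel) on each of the 36 arrays, by group (horizontal axes), where filled points are arrays above background, open points are not, and black lines are means of 3 arrays. ZIC2 has its highest means on day 3 (12.97 in DSi and 12.73 in NC), and ZIC4 is above background only on the 6 arrays of NC days 8 and 11.

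The comparison of NC with DSi on the same day asks what the addition of CHIR 99021 changed. On days 3 and 6 none of the 4 genes was called. At these times limma called 0.486% of all genes on day 3 and 5.38% on day 6. The ZIC4 difference on day 3 was 0.06 (95% interval -0.33 to 0.45). That of ZIC2 was -0.24 on day 3 (95% interval -0.63 to 0.15) and -0.12 on day 6 (95% interval -0.51 to 0.27). The widest intervals were those of ZIC5, from -0.60 to 0.53 on day 3 and from -0.28 to 0.85 on day 6. ZIC1 differed by -0.43 on day 3 (95% interval -0.86 to 0.01), with overlapping ranges.

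On day 8, 2 of the 4 genes were called, ZIC1 and ZIC4, where 6.69% of all genes were. ZIC4 was higher in NC by 1.27 on the log2 scale (SE 0.19, adjusted p = 4.25e-06), at least 1.48-fold, since no DSi day 8 array was above background. A bound of this kind sets the NC mean against the lowest signals that counted as above background. ZIC1 was higher in NC by 0.68 (SE 0.22, adjusted p = 0.0465), at least 1.18-fold, a call that was lost without any 1 of 5 of the 6 arrays, with adjusted p between 0.0585 and 0.27. It was also lost on the authors' own normalized values, where the difference was 0.32 (adjusted p = 0.059). ZIC2 differed by -0.16 (95% interval -0.55 to 0.23) and ZIC5 by -0.04 (95% interval -0.61 to 0.52).

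On day 11, 3 of the 4 genes were called, against 11.1% of all genes, and they moved in opposite directions. ZIC4 was higher in NC by 2.32 (SE 0.19, adjusted p = 4.82e-13), at least 3.55-fold, and ZIC1 by 1.41 (SE 0.22, adjusted p = 2.55e-06), at least 1.93-fold. ZIC2 was lower in NC by 1.21 (log2 difference -1.21, SE 0.19, adjusted p = 4.63e-06), a fold of 2.32. For each of these 3 genes, all 3 NC arrays lay on one side of all 3 DSi arrays, as they did for 22.4% of all genes. ZIC5 differed by 0.09, with a 95% interval of -0.48 to 0.65, and was above background on 1 of these 6 arrays. In bulk samples such as these, fewer cells of a type and less RNA per cell cannot be told apart.

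The BE condition differs from NC in the addition of BMP4 and EDN3. On day 8 only ZIC4 was called among the 4 genes, lower in BE by 0.76 (log2 difference -0.76, SE 0.19, adjusted p = 0.0223), at least 1.45-fold, where 1.85% of all genes were called. This call was lost without BE replicate 1, BE replicate 2 or NC replicate 3 (adjusted p of 0.108, 0.119 and 0.267), and on the authors' values, where the difference was -0.31 (adjusted p = 0.315). On day 11, where 8.76% of all genes were called, ZIC4 was lower in BE at least 3.64-fold (log2 difference -2.24, SE 0.19, adjusted p = 1.9e-12). ZIC1 was lower by 0.93 (log2 difference -0.93, SE 0.22, adjusted p = 0.00218), a fold of 1.91, and its ranges did not overlap (5.66 to 6.53 in NC, 4.96 to 5.42 in BE). Ranges were apart for 21.3% of all genes here. ZIC2 was at -0.52 on day 8 and -0.42 on day 11, neither of them called. ZIC5 differed by 0.08 and 0.12.

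Between BE and DSi only ZIC2 was called, on both days, against 10.5% of all genes on day 8 and 16.5% on day 11. It was lower in BE by 0.67 on day 8 (log2 difference -0.67, SE 0.19, adjusted p = 0.014) and by 1.64 on day 11 (log2 difference -1.64, SE 0.19, adjusted p = 5.13e-09), a fold of 3.11. The day 8 call was lost without replicate 2 of either group (adjusted p of 0.0966 and 0.143). ZIC4 differed by 0.51 on day 8 (adjusted p = 0.0912), with no array of either group above background, and by 0.08 on day 11 (95% interval -0.31 to 0.47). ZIC1 differed by 0.47 on day 11 (adjusted p = 0.143). NC, BE and DSi comparisons on one day share arrays and are not independent.

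**Figure D2:**
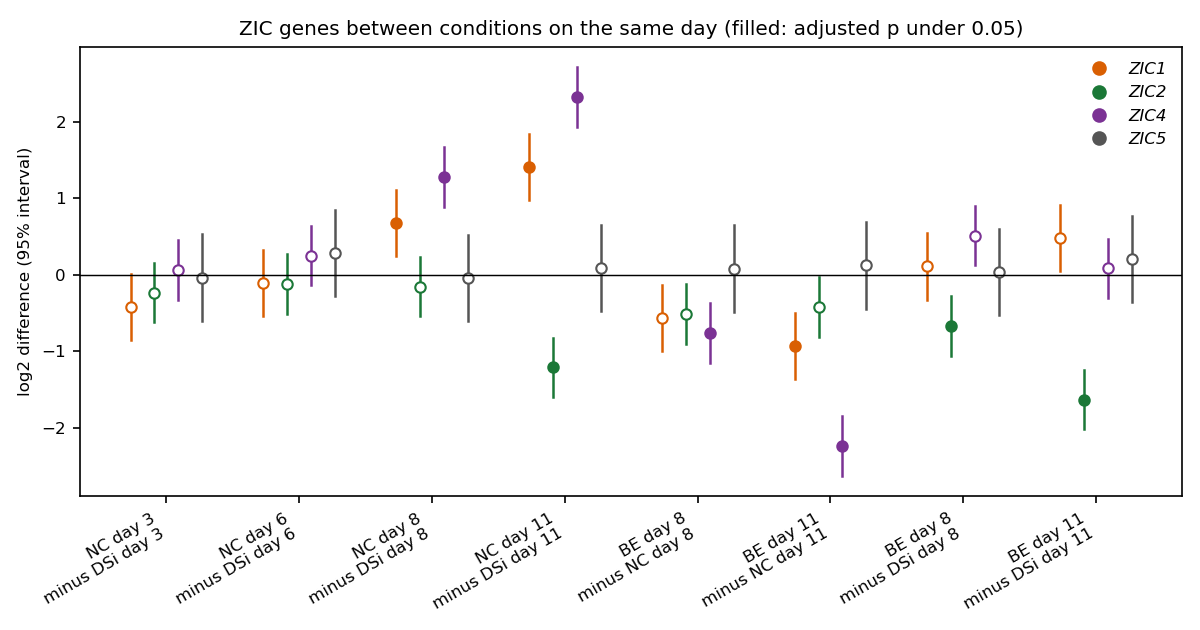
Log2 difference between conditions on the same day (vertical axis) for each ZIC gene in 8 comparisons (horizontal axis), with bars for the 95% interval of limma's fit and filled points for an adjusted p under 0.05. On day 11, ZIC4 (2.32) and ZIC1 (1.41) lie above 0 and ZIC2 (-1.21) below 0 for NC minus DSi.

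The time course gives the same signals by successive days. From day 0 to day 1, 1 of the 4 genes was called, against 4.41% of all genes. ZIC2 rose by 1.05 (SE 0.19, adjusted p = 0.000229), a fold of 2.07, and each day 1 array exceeded all day 0 arrays. The ranges of these days were apart for 22.6% of all genes. ZIC1, ZIC4 and ZIC5 differed by 0.15 or less. From day 1 to day 3, ZIC2 rose again in DSi by 1.75 (SE 0.19, adjusted p = 2.94e-09), a fold of 3.36, where 9.66% of all genes were called. In NC it rose by 1.51 (SE 0.19, adjusted p = 7.5e-08), a fold of 2.85, where 13.1% were called. ZIC5 differed by 0.80 in DSi (adjusted p = 0.0621) and by 0.76 in NC (adjusted p = 0.0667). Its ranges did not overlap with day 1 in either case, but neither difference passed the test. Of all genes, 23.7% had ranges apart in DSi and 25.4% in NC. ZIC1 differed by 0.43 in DSi (95% interval 0.00 to 0.87) and passed the test without DSi day 3 replicate 1, at 0.72 (adjusted p = 0.045).

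After day 3, the ZIC2 mean was lower at each later sampling of a condition. Between DSi days 3 and 6 it was the 1 gene of the 4 that was called, and 14.5% of all genes were called there. It fell by 0.62 (log2 difference -0.62, SE 0.19, adjusted p = 0.0223), a call that was lost without replicate 1 or 3 of either day (adjusted p between 0.0605 and 0.103). From DSi day 6 to day 8 it differed by -0.46 and from day 8 to day 11 by -0.51 (adjusted p = 0.103), and none of the 4 genes was called in these steps, where 0.963% and 6.86% of all genes were. In NC the ZIC2 difference from day 3 to day 6 was -0.50 (adjusted p = 0.0538), with 22.5% of all genes called and none of the 4, and passed the test without NC day 6 replicate 3 at -0.72 (adjusted p = 0.00928). Raw ZIC2 signals averaged 5565.5 in NC day 3 and 5604.5 in NC day 6, so the difference between these days appears only after normalization. From NC day 6 to day 8 the ZIC2 difference was -0.49 (adjusted p = 0.148). The drop from NC day 8 to day 11 was the larger one, 1.57 on the log2 scale (log2 difference -1.57, SE 0.19, adjusted p = 4.28e-08), a fold of 2.97. From BE day 8 to day 11, where 9.60% of all genes were called, ZIC2 fell by 1.48 (log2 difference -1.48, SE 0.19, adjusted p = 1.78e-07) and was the 1 gene of the 4 that was called.

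ZIC4 rose between NC days 6 and 8 by 1.04 (SE 0.19, adjusted p = 0.000273), at least 1.43-fold, the 1 call among the 4 genes against 5.21% of all genes. From NC day 8 to day 11 it rose further by 1.29 (SE 0.19, adjusted p = 3.65e-06), a fold of 2.45, and 3 of the 4 genes were called where 7.87% of all genes were. ZIC1 rose by 0.75 in this step (SE 0.22, adjusted p = 0.0206), a call lost without replicate 1 or 2 of day 8 or replicate 1 or 3 of day 11 (adjusted p between 0.0581 and 0.19). ZIC1 between NC days 6 and 8 differed by 0.62 (adjusted p = 0.0861).

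**Figure D3:**
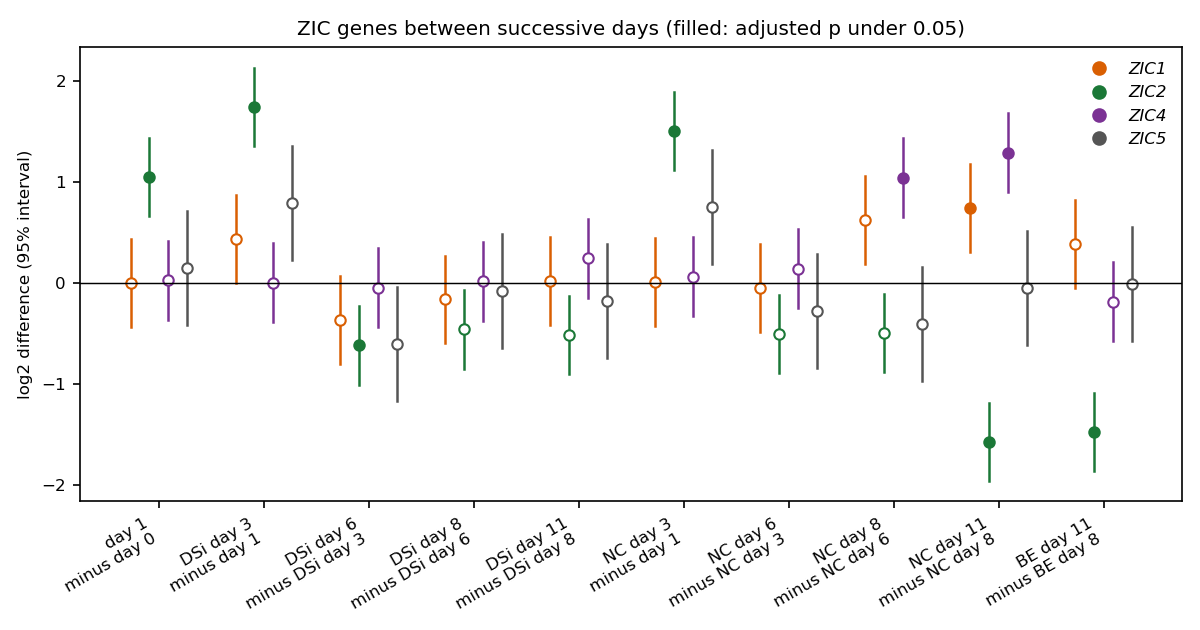
Log2 difference between successive sampling days (vertical axis) for each ZIC gene in 10 comparisons (horizontal axis), with bars for the 95% interval and filled points for an adjusted p under 0.05. ZIC2 lies above 0 up to day 3 (1.05, 1.75 and 1.51) and below 0 afterwards, and ZIC4 lies above 0 in the last 2 NC steps (1.04 and 1.29).

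Over the whole course, day 11 was compared with day 0. In DSi, where 27.4% of all genes were called, ZIC2 alone of the 4 was called, 1.21 above its day 0 level (SE 0.19, adjusted p = 1.91e-06). In NC, where 29.4% were called, ZIC4 was at least 3.55-fold above day 0 (log2 difference 2.57, SE 0.19, adjusted p = 5.68e-15) and ZIC1 at least 1.93-fold (log2 difference 1.33, SE 0.22, adjusted p = 2.45e-06). ZIC2 in NC day 11 differed from day 0 by -0.01, with a 95% interval of -0.39 to 0.38. In BE, where 28.8% of all genes were called, none of the 4 was, and ZIC2 was at -0.43 (adjusted p = 0.0944), which passed the test without day 0 replicate 1 or 2 (adjusted p of 0.0473 and 0.032). The change of the NC to DSi difference from day 3 to day 11 was tested as a contrast of its own and was called for 3 of the 4 genes, against 5.43% of all genes. It was 2.26 for ZIC4 (SE 0.27, adjusted p = 4.13e-08), 1.83 for ZIC1 (SE 0.30, adjusted p = 2.76e-05) and -0.98 for ZIC2 (SE 0.27, adjusted p = 0.02). The ZIC4 and ZIC1 sizes rest partly on readings not above background. The ZIC2 value lost its call without NC day 11 replicate 1, DSi day 3 replicate 2 or DSi day 11 replicate 3, with adjusted p between 0.0641 and 0.0685. For ZIC5 it was 0.13 (95% interval -0.67 to 0.92).

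The members of each genomic pair had similar courses, described here by correlations over the 12 group means, which share arrays and normalization. The correlation was 0.895 for ZIC1 with ZIC4 and 0.739 for ZIC2 with ZIC5. By ranks it was 0.497 and 0.685, and most of the ZIC1 and ZIC4 means are readings not above background. Across the pairs it lay between -0.401 (ZIC2 with ZIC4) and -0.05 (ZIC1 with ZIC5).

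The nearest measured genes on either side were described in the same way. Beside ZIC4 and ZIC1 these are PLSCR1 and PLSCR5, of the phospholipid scramblase family, at distances of 841439 and 780700 bases. On the other side are AGTR1, an angiotensin II receptor, at 1281184 bases, and CPB1, a carboxypeptidase, which did not pass the detection filter. None of the 3 tested neighbours was called between NC and DSi on day 8 or day 11, where 6.69% and 11.1% of all genes were. PLSCR5 and AGTR1 were above background on only 5 and 6 of 36 arrays. Correlations with ZIC4 were -0.25 for PLSCR1, 0.41 for PLSCR5 and -0.24 for AGTR1. PLSCR1 was lower than on day 0 in NC day 11 (log2 difference -1.17, adjusted p = 0.00273), where ZIC4 and ZIC1 were higher. Beside ZIC5 and ZIC2 these are CLYBL, a mitochondrial lyase, at 53520 bases, TM9SF2, PCCA, a subunit of propionyl-CoA carboxylase, at 102328 bases, and GGACT. CLYBL rose from day 0 to day 1 by 1.10 (adjusted p = 0.0016), as ZIC2 did, and its correlation with ZIC2 was 0.811. PCCA rose from day 1 to day 3 by 0.48 in DSi (adjusted p = 0.0224) and by 0.54 in NC (adjusted p = 0.00649), and its correlation was 0.844 with ZIC5 and 0.639 with ZIC2. None of these 4 neighbours was called between NC and DSi on day 11, where ZIC2 and 11.1% of all genes were. TM9SF2 and GGACT had correlations of -0.55 and -0.25 with ZIC2.

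**Figure D4:**
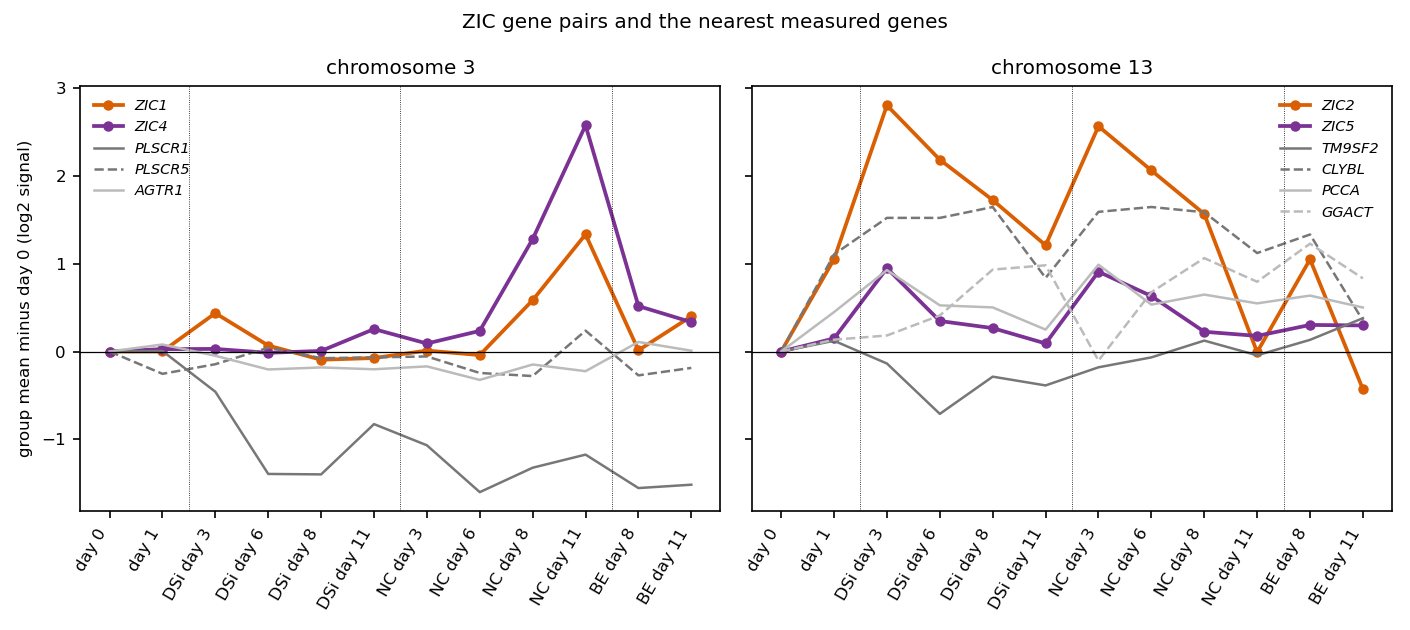
Group mean minus the day 0 mean on the log2 scale (vertical axes) across the 12 groups (horizontal axes) for the ZIC pair on chromosome 3 (left) and on chromosome 13 (right), in colour, and for the nearest measured genes, in grey. ZIC4 reaches 2.57 in NC day 11 while PLSCR1 lies at -1.17, and CLYBL follows the early rise of ZIC2. AGTR1 and PLSCR5 stay close to 0 and were above background on only 6 and 5 of 36 arrays.

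The structural relatives of the ZIC genes, the GLI and GLIS factors, had no call in the direction of ZIC1 and ZIC4 in NC on day 11. Of 6 listed genes 5 were tested, and in NC minus DSi on day 11, 0 were called higher and 3 lower, with a median of -1.06 against -0.00 over all genes. GLI2, an activator of hedgehog targets, was lower by 1.51 (log2 difference -1.51, adjusted p = 2.11e-05), GLIS3 by 1.51 (log2 difference -1.51, adjusted p = 6.4e-06) and GLI3, mainly a repressor of these targets, by 1.06 (log2 difference -1.06, adjusted p = 0.00405). ZIC2 was lower in this comparison too, by 1.21. On day 3 in DSi, when ZIC2 was highest, 2 of the 5 were called higher than in day 1 and 0 lower, namely GLIS3 by at least 1.72-fold (adjusted p = 6.67e-05) and GLI3 by 1.28 (adjusted p = 0.000623). Over the 12 group means GLI2 correlated with ZIC2 at 0.694 and with ZIC4 at -0.837. GLIS1 was not tested.

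Of 10 listed hedgehog pathway genes, 7 were tested, and on day 11, 1 was called higher and 4 lower in NC than in DSi, with a median of -0.61. Among them, the co-receptor GAS1 was lower by 1.27 (log2 difference -1.27, adjusted p = 2.11e-05) and the co-receptor BOC was lower 2.00-fold (adjusted p = 0.0131). HHIP, an inhibitor that binds hedgehog ligands, was higher by 1.09 (adjusted p = 0.000177). The ligand SHH and SUFU, an inhibitor of GLI proteins, were above background on 0 of 36 arrays. GAS1 rose from day 1 to day 3 in DSi by 2.28 (adjusted p = 6.37e-11), as ZIC2 did. Unlike ZIC2 it had higher means after that, 8.23 in DSi day 3, 10.50 in day 6, 11.68 in day 8 and 12.26 in day 11.

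Genes of the neural plate border and dorsal neural tube were called higher in NC than in DSi on days 6, 8 and 11. Of 14 listed genes 10 were tested. On day 6, when no ZIC gene was called, 8 were called higher and 1 lower in NC than in DSi, with a median of 3.22. On day 8, 8 were called higher and 1 lower in NC than in DSi, with a median of 3.63, and on day 11, 7 were higher and 0 lower, with a median of 2.08. On day 8 the largest were LMX1A, a roof plate factor, at least 35.5-fold, and the ligands WNT1 and WNT3A, at least 25.7-fold and at least 20.9-fold (adjusted p of 5.17e-13, 9.5e-16 and 5.91e-14). On day 11 the largest were TFAP2B, a border and crest factor, by 4.64 (adjusted p = 3.61e-19), WNT3A by 3.52 (adjusted p = 2.85e-10) and LMX1A by 2.84 (adjusted p = 4.51e-06). In BE minus DSi, where ZIC1 and ZIC4 were not called, 8 were higher and 1 lower on day 8 (median 3.41), and 7 were higher and 0 lower on day 11 (median 2.43). In the step from NC day 8 to day 11 ZIC4 rose, and 1 of the 10 was called higher and 2 lower, WNT1 by 2.90 (log2 difference -2.90, adjusted p = 2.53e-08) and LMX1A by 1.62 (log2 difference -1.62, adjusted p = 0.0152).

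For neural crest specifiers, 7 of 8 were tested, with 7 called higher in NC than in DSi on day 6 (median 1.72), when no ZIC gene was called, 6 called higher in NC than in DSi on day 8 (median 2.30) and 5 on day 11 (median 1.54), and 0 lower. SOX10, a factor of migrating crest and glia, was at least 35.6-fold higher on day 8 and at least 33.5-fold higher on day 11. From NC day 8 to day 11, 0 crest genes were called higher and 3 lower, while ZIC1 and ZIC4 rose. Between BE and NC on day 11, 2 crest genes were called higher, SNAI2 by 1.48 and ETS1 by 1.42, and 3 lower, where ZIC1 and ZIC4 were both lower.

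Among anterior neural genes, 3 of 11 tested were already called lower in NC than in DSi on day 3. On day 6, when no ZIC gene was called, 0 of 11 tested were called higher and 9 lower (median -1.64). In NC minus DSi on day 11, 0 of 11 tested were called higher and 10 lower, with a median of -2.75, and LHX2, an eye field and forebrain factor, was at least 122.2-fold lower. In BE minus DSi 10 of the 11 were lower on day 8 (median -2.97) and 10 on day 11 (median -3.00), where ZIC1 and ZIC4 were not called. In BE minus NC on day 11, where ZIC1 and ZIC4 were lower, the median of the list was 0.04. In DSi day 3, when ZIC2 was highest, 6 of the 11 were called higher than in day 1 and 0 lower, with HESX1 up by 4.78 (adjusted p = 6.53e-17). Of 10 pluripotency genes, 1 was called higher and 4 lower in that step, where ZIC2 rose. NANOG and POU5F1 fell (log2 differences -2.33 and -1.26, adjusted p of 5.78e-11 and 0.00365), and SOX2, which neural progenitors also express, rose by 1.23 (adjusted p = 0.000183).

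Markers of other cell types moved with some of these differences. Of 8 neuronal genes, 7 were above background on all 3 arrays of NC day 11, and ELAVL4 was on none. Their summed linear signal was 11810 to 17215 in NC day 11, against 1616 to 2517 in DSi day 11 and 2223 to 2959 in BE day 11. In NC minus DSi on day 11, 7 of 7 tested were called higher (median 3.07), and in BE minus NC on day 11, 7 of 7 were lower (median -4.33), as ZIC4 and ZIC1 were. In NC day 8, where ZIC4 was already above background on 3 of 3 arrays, the summed signal was 1451 to 1902. That is above DSi day 8 (671 to 857) but below day 1 (2299 to 2448), where ZIC4 was above background on no array. The sums of day 1 and NC day 8 are made up differently. TUBB3 averaged 11.04 in day 1 and 9.80 in NC day 8, and POU4F1 averaged 5.20 and 8.76. POU4F1, a factor of sensory neurons, was called higher in NC than in DSi on day 8, by 3.09 (adjusted p = 2e-11). It also averaged 10.74 in NC day 6 and 8.83 in BE day 8, where ZIC4 was above background on no array. The part of neurons in the ZIC1 and ZIC4 differences was not tested.

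Amnion and surface ectoderm genes summed to 1591 to 2614 in NC day 11, 1749 to 2891 in BE day 8 and 2331 to 4479 in BE day 11, and to at most 439 elsewhere, with CDX2 and GATA2 on no array of NC day 11. These sums are made up differently. ISL1, which sensory neurons also express, was by far the brightest of the list in NC day 11. It averaged 10.68 there and 8.48 in BE day 8, whereas HAND1 averaged 5.36 and 10.47. ISL1 was called higher in NC than in DSi on day 11, by 5.42 (adjusted p = 1.31e-19). ZIC4 was not above background in the BE groups, where the sum of this list was also high. Mesenchyme and fibroblast genes summed to 3734 to 4654 in NC day 8 and 3021 to 4068 in NC day 11, against 1404 to 1593 and 1450 to 2320 in the DSi groups of those days. In BE day 11 they summed to 5054 to 6594. The sums of day 0 (3979 to 4319) and day 1 (3298 to 4403) were similar to those of NC. Genes of this list did not all move together. On day 8 COL1A2 averaged 11.62 in NC and 9.30 in DSi, whereas THY1 averaged 8.08 and 8.85. The highest sums of both lists came from BE day 11, the group with the lowest ZIC2 mean. They overlapped the sums of BE day 8 (5417 to 6300 for mesenchyme genes), where ZIC2 averaged 11.22. The part of both lists in the ZIC differences was not tested. Mesoderm genes were included because ZIC genes are also transcribed in somites. Of 9 genes, 0 or 1 was above background on all arrays of a group, with MIXL1 on no array and MSGN1 on 1 array of 36. FOXC2 was above background on all 3 arrays of days 6 and 8 in DSi and in NC, at 5.71 to 6.01 on the mean, and it was lower in NC day 11 than in NC day 8 at least 1.49-fold (adjusted p = 0.00765). EOMES was above background on all 3 arrays of DSi day 11 alone (5.51 ± 0.25), and at least 1.30-fold lower in NC day 11 (adjusted p = 8.43e-08). In DSi day 11 the listed genes TBXT, MSGN1, MESP1, MIXL1 and TCF15 were above background on no array. The part of mesoderm cells in the ZIC differences was not tested. Of 5 endoderm genes only AFP was above background on all arrays of a group, in day 0, day 1 and BE day 11.

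**Figure D5:**
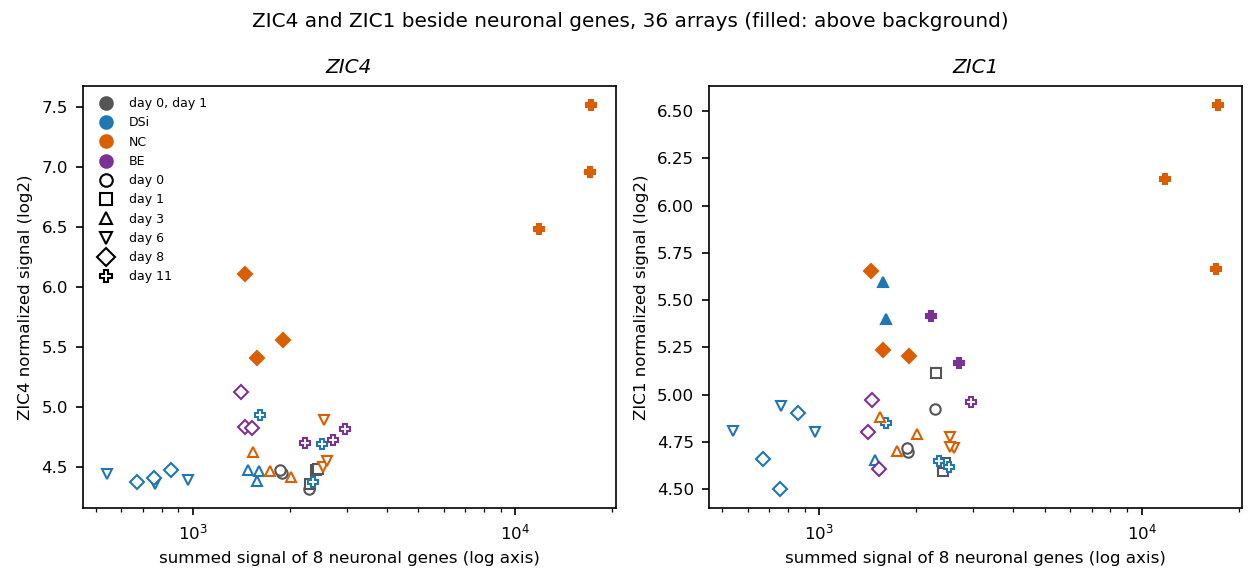
Normalized log2 signal of ZIC4 (left) and ZIC1 (right) on the vertical axes against the summed linear signal of 8 neuronal genes on a logarithmic horizontal axis, for 36 arrays, with colours for conditions, shapes for days and filled points for arrays above background. The 3 arrays of NC day 11 lie apart at 11810 to 17215, and the ZIC4 readings of NC day 8 exceed those of other groups at similar summed signals. Similar sums can be made up of different genes.

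The genes whose group means were most like those of each ZIC gene were taken from the 2342 genes with a span of at least 2 on the log2 scale, by Pearson's correlation over the 12 group means. For ZIC4 these were NEUROG1 (0.995), a proneural factor, FOXD2 (0.975), MSTN (0.965), PRDM12 (0.964), a factor of nociceptive sensory neurons, and GFRA3 (0.958), a receptor for artemin. NEUROG1 averaged 6.87 ± 0.82 in NC day 8 and 9.31 ± 0.36 in NC day 11, and unlike ZIC4 it was above background on all arrays of BE day 8 (5.89 ± 0.21) and BE day 11 (5.25 ± 0.11). PRDM12 was above background on 2 of 3 arrays of NC day 8 and 3 of 3 of NC day 11, and on none elsewhere. For ZIC1 these were LOC646960 (0.932), HS.223856 (0.914), SRRM4 (0.907), a neuronal splicing factor, MSTN (0.907) and FAM110A (0.902). For ZIC2 they were LOC100129681 (0.955), BST2 (0.948), an interferon-inducible membrane protein, LOC646783 (0.934), TNNT1 (0.933), a slow skeletal muscle troponin, and SLC16A9 (0.923). BST2 averaged 9.35 ± 0.19 in DSi day 3 and 5.55 ± 0.32 in NC day 11. For ZIC5 they were LMO1 (0.937), a LIM-only factor, HMX2 (0.931), VWF (0.928), IRX5 (0.917) and SEMA4C (0.910). LMO1 averaged 10.56 ± 0.37 in DSi day 3 and 10.26 ± 0.72 in NC day 3, and 4.74 ± 0.04 in day 0. MSTN was the 1 gene among the 5 named for both ZIC1 and ZIC4. Just past that cut, NEUROG1 ranked 6 for ZIC1 (0.889) and SRRM4 ranked 7 for ZIC4 (0.9485).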

How the data were processed

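RNA of 36 samples was measured on Illumina bead arrays. Per the file headers, the deposited probe table holds, for 47323 probes and each array, a mean bead intensity that was not normalized and a detection p-value against negative controls. The second deposited table holds the authors' log2 values for 34687 gene symbols. On each array these log2 values followed a monotone function of the probe signals. Quantile normalization without background subtraction would give such values, but the authors' steps were not tested. The submitters' processing notes name Partek, and its version is not given in the sources used here. Missing from the probe table are gene names, probe sequences and slide names. Each gene was therefore tied to the run of neighbouring probes whose mean signal gave its value on all arrays through 1 monotone function per array (34665 genes tied, 34240 of them within 0.002 log2 root mean square). For ZIC1, ZIC4 and ZIC5 this difference was 5.03e-05, 0.000678 and 3.42e-05. For ZIC2 it was 0.0402, against 0.788 for the next closest probe.

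Signals were background-corrected with limma 3.58.1 (R 4.3.3; normexp with detection p-values, offset 16), quantile normalized and taken to log2. The 29106 probes above background (detection p under 0.05) on 3 or more arrays were used, and of several probes of a gene the brightest on average was taken. One linear model was fitted to all 36 arrays with 12 group means (24 residual degrees of freedom) and moderated with a trend. It was tested on simulated data. There were 21 comparisons and 1 difference of differences, each adjusted over 22843 genes with the Benjamini-Hochberg method at 0.05. Precision is limited by the number of arrays, and a probe dim on all arrays of a group has only a bound there. Members were named everywhere. From each list the genes named are among the called ones with the largest differences in the comparison described. The ZIC genes and the gene lists were chosen with earlier results of these data known.

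Replicates with one number share a code in their titles, whose meaning is not stated. Deviations from group means correlated above 0.1 in all 3 same-numbered pairs in 7 of 21 comparisons, with correlations of 0.105 to 0.309 there. These were NC against DSi on days 3, 6 and 11, BE against NC and against DSi on day 11, DSi day 8 against day 6 and NC day 11 against day 8, and in them the replicate block changed no call of a ZIC gene. Settings for background, scaling, filter, probe choice, block and fit, and each array left out, were varied.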

Additional observations from a re-analysis of the deposited data

Results flagged for a closer look

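The difference between NC and DSi changed from day 3 to day 11 for 3 of the 4 ZIC genes, by a test of the change itself in limma's fit. For ZIC1 the difference went from -0.43 to 1.41, a change of 1.83 (SE 0.30, adjusted p = 2.76e-05). For ZIC4 it went from 0.06 to 2.32, a change of 2.26 (SE 0.27, adjusted p = 4.13e-08). For ZIC2 it went from -0.24 to -1.21, a change of -0.98 (SE 0.27, adjusted p = 0.02). All 3 DSi day 3 arrays enter these values, including the one with the differing title. None of the day 3 differences was called. ZIC1 was above background on no array of NC day 3 or DSi day 11, and ZIC4 was so in NC day 11 only. The sizes for these genes therefore rest partly on readings not above background.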

How the results depend on the processing

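The direction of every called ZIC value held under every setting tried. Of 247 such values under other settings, 234 stayed called and 13 did not, and of 168 with 1 array left out, 147 did and 21 did not. Calls of ZIC2 and ZIC4 on day 11 between NC and DSi were among those that held. The ZIC1 difference of NC and DSi on day 8 was not called with an offset of 50 (0.33), median scaling (0.79), the authors' values (0.32) or no filter (0.68). ZIC4 in BE minus NC on day 8 was not called without background correction (-0.31), with median scaling (-0.58), on the authors' values (-0.31) or with only the groups compared (-0.76). With only the groups compared, ZIC1 was not called in BE minus NC on day 11 (-0.93, adjusted p = 0.0658) or in NC day 11 minus day 8 (0.75, adjusted p = 0.141). Without a trend, ZIC2 was not called in DSi day 6 minus day 3 (-0.62) or in the change from day 3 to day 11 (-0.98), and the latter was also not called on the authors' values (-0.87). Values that became called were ZIC4 in BE minus DSi on day 8 without background correction (0.38), with median scaling (0.88), on the authors' values (0.38) and with only the groups compared (0.51), and ZIC4 in BE day 11 minus day 0 without background correction (0.32) and on the authors' values (0.33). ZIC2 became called in NC day 6 minus day 3 (-0.50) with the stricter filter and with only the groups compared, and with median scaling in NC day 8 minus day 6 (-0.59) and BE day 11 minus day 0 (-0.54). The cause was not tested. With only the groups compared, fewer arrays estimated the spread, and the genes called numbered 42 in NC minus DSi on day 3, 1684 on day 11, 963 in DSi day 11 minus day 8 and 1956 in NC day 3 minus day 1, against 111, 2541, 1568 and 2984.

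With the replicate number as a block, 29 of 88 ZIC values were called in place of 25, and the genes called in a comparison were 1.05 to 1.42 times as many. The 4 added calls were ZIC5 in DSi day 3 minus day 1 (0.80, adjusted p = 0.0483) and ZIC2 in DSi day 11 minus day 8 (-0.51, adjusted p = 0.0349), NC day 6 minus day 3 (-0.50, adjusted p = 0.0167) and BE day 11 minus day 0 (-0.43, adjusted p = 0.0372), and no other ZIC call changed. In these 4 comparisons the numbers did not pair all samples by the correlation of deviations.

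With 1 array left out, the genes called ranged from 64 to 163 in NC minus DSi on day 3, 255 to 313 in BE minus NC on day 8, 611 to 819 in day 1 minus day 0, 1387 to 2101 in DSi day 3 minus day 1, 85 to 249 in DSi day 8 minus day 6, 979 to 1424 in DSi day 11 minus day 8 and 710 to 1040 in NC day 8 minus day 6. ZIC1 ranged from 0.53 to 0.79 in NC minus DSi on day 8, 0.25 to 0.72 in DSi day 3 minus day 1, -0.65 to -0.18 in DSi day 6 minus day 3 (adjusted p = 0.0432 without DSi day 3 replicate 1) and 0.54 to 0.97 in NC day 11 minus day 8. ZIC4 ranged from -0.90 to -0.56 in BE minus NC on day 8. ZIC2 ranged from -0.83 to -0.52 in BE minus DSi on day 8, -0.71 to -0.54 in DSi day 6 minus day 3, -0.72 to -0.39 in NC day 6 minus day 3, -0.59 to -0.13 in BE day 11 minus day 0 and -1.11 to -0.89 in the change from day 3 to day 11.

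Median scaling moved the median of all genes, by at most 0.272 upward (day 1 minus day 0) and 0.284 downward (NC day 6 minus day 3, a median of -0.284). The ZIC2 rise from day 0 to day 1 was then 1.01. The share of calls that were higher went from 54.9% to 69.5% in day 1 minus day 0, from 49.2% to 59.5% in BE minus DSi on day 8, from 61.8% to 48.0% in DSi day 8 minus day 6, from 50.4% to 61.3% in DSi day 11 minus day 8 and from 48.4% to 37.6% in NC day 6 minus day 3. The use of each other probe of a ZIC gene was not run, since each has 1 probe. ZIC1, ZIC4 and ZIC5 lie near background on most arrays, so differences among their dim groups were not measurable. ZIC5 did not pass the stricter detection filter and has no values under that setting.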
